A study of Homo sapiens with 14 samples.

Results

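The regions described here were stretches of distal chromatin that carried acetylated histone H3 lysine 27 (H3K27ac) in the soft list and not in the stiff list, and that were also occupied by phosphorylated JUN (p-JUN). CUT&Tag was performed on wild type LX-2, a human line of immortalised hepatic stellate cells, after 2 days of culture on a soft or a stiff matrix. The H3K27ac peaks of both lists were merged where they shared at least 1 bp. A region was kept when it was called in the soft list alone, lay more than 3 kb from every protein-coding transcript start, and overlapped a p-JUN peak in all 4 p-JUN lists. This left 3389 of 20403 merged H3K27ac regions (16.6%), called soft-only regions below. With both H3K27ac lists cut to equal length by -log10 q, the same rule left 2002. The regions were thus selected on measured values, the H3K27ac calls of both lists and the p-JUN calls of the 4 lists. These calls are given as descriptions, without a test. Levels of p-JUN were compared only among regions called in all 4 lists.

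The soft group was titled 2K and the stiff group 40K, the study's polyacrylamide hydrogels coated with fibronectin. For p-JUN, the stiff libraries were titled TCP, the study's abbreviation for tissue culture plastic, so the p-JUN contrast is between libraries labelled soft and labelled stiff, and plastic and stiff gel cannot be told apart in it. p-JUN, H3K4me3 and H3K27me3 each had 2 libraries per matrix, and H3K27ac had 1 list per matrix, named as merged, so H3K27ac has no replicate error. Nothing in the labels says that the 2 libraries of a group came from separate cultures, so p-values measure the spread between these libraries, which may be technical. LX-2 is 1 established line, grown without the other cells of the liver.

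H3K27ac marks active promoters and enhancers, and away from promoters it is the usual sign of an active enhancer. JUN is a subunit of AP-1, a family of paired leucine zipper proteins that bind the sequence TGACTCA, and its phosphorylation by JNK kinases raises its activity. In stellate cells, the matrix-producing cells of the injured liver, AP-1 is known for its part in activation by cytokines and by mechanical load.

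The soft H3K27ac list held 18238 peaks and the stiff list 13322, and 35.0% of all merged regions were soft-only, a share the selection itself uses. The p-JUN lists held 48163 to 54168 peaks with median summits of 60 to 64 fragments, and the H3K4me3 lists 18096 to 18857 peaks. H3K4me3 at starts was present in all 4 libraries for 7 of 10 stellate or myofibroblast markers, among them ACTA2, TAGLN, VIM and PDGFRB, and for 0 of 8 hepatocyte markers, while 2 of 6 endothelial, 1 of 6 leukocyte and 2 of 4 bile duct markers also carried it. DES and COL1A2 had none.

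Of the 4573 distal soft-only H3K27ac regions, 3389 (74.1%) had p-JUN in all 4 lists, 187, 214 and 223 had it in 1, 2 and 3 lists and 560 in none. The share was 90.6% among the 7030 distal regions acetylated in both lists and 71.4% among the 1508 distal stiff-only ones. The 6370 both-list and 1076 stiff-only regions that passed the same distance and p-JUN limits serve below as comparison. The soft-only region nearest to a start lay 3031 bp away, and the closest one left out lay 2994 bp away. The weakest had a -log10 q of 5.003 with 9 fragments, at the floor of the list.

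The windows with the highest p-JUN, ordered by the geometric mean of the 4 libraries, and a strongly acetylated window in TRIO with a motif show what the regions look like in sequence. Each reaches 50 bases to either side of the p-JUN summit of soft library 1 on the plus strand of GRCh37 and is named by the gene with the nearest protein-coding start, with TGACTCA or its reverse complement TGAGTCA in capitals.
ENSG00000258989 (chr14:62029686-62029786): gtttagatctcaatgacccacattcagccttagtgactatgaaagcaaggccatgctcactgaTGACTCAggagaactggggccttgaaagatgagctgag
BHLHE40 (chr3:5065138-5065238): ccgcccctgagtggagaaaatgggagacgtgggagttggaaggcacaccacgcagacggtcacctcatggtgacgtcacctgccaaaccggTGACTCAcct
INHBA (chr7:41068794-41068894): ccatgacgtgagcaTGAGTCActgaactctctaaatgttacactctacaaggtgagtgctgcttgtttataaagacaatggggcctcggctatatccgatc
ITGA3 (chr17:48128530-48128630): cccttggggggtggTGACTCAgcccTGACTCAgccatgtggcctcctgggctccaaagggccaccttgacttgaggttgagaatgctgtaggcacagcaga
WNT9A (chr1:228122658-228122758): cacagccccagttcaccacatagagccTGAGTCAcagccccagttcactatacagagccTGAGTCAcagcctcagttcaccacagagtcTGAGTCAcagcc
ICE1 (chr5:5340606-5340706): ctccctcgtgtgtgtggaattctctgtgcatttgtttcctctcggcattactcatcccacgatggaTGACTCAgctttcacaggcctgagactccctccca
TRIO (chr5:14305275-14305375): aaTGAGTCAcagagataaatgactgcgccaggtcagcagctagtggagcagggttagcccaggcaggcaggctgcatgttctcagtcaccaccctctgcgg
The motif lies 16 bp to the right of the summit in the ENSG00000258989 window and 44 bp to the right in the BHLHE40 window, which also holds the cyclic AMP response sequence TGACGTCA. The ITGA3 window holds 2 motifs and the WNT9A window 3, and the whole WNT9A region, in an intron, holds 11, more than any other soft-only region. In the WNT9A window 31.1% of the 12-base words occurred more than once, so its motifs come in a tandem array. BHLHE40 is a clock and stress repressor, INHBA a subunit of activin, ITGA3 a laminin-binding integrin, TRIO a guanine nucleotide exchange factor for small GTPases and ICE1 a scaffold of the complex that transcribes small nuclear RNAs.

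Other strong windows hold no such motif, and some are repeats. They are shown for contrast.
FOSL2 (chr2:28632040-28632140): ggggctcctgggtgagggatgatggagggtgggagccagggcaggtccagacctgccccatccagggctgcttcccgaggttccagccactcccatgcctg
NRARP (chr9:140222738-140222838): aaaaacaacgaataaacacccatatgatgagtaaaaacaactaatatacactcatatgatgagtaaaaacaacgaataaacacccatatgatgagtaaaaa
GPRC5A (chr12:13080565-13080665): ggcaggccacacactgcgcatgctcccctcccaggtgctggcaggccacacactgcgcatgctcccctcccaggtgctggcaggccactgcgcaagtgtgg
FOSL2 encodes Fra-2, itself an AP-1 subunit, and the window in its intron had the eighth highest p-JUN of all soft-only regions with none of these letters. The NRARP window was built of a tandem repeat, with 73.3% of its 12-base words repeated, and its summit lay 363 bp outside the acetylated region. The GPRC5A window was 84.4% repeated words. In all, 11 of 3389 soft-only windows (0.325%) had over 50% repeated words, against 40 of 6370 both-list windows (0.628%) and 10 of 1076 stiff-only windows (0.929%).

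Acetylation of the soft-only regions was weak even on soft. Their summits carried a median of 21 fragments on soft (quartiles 16 and 28, highest 100), against 34 (25 and 49) at both-list regions. The local background was also lower, 2.14 against 3.84 fragments, so that the deposited fold of summit over background differed less, with medians of 6.73 and 7.16. Each soft-only region was a single soft peak, with a median width of 365 bp against 637 bp in both lists and 347.5 bp in the stiff list alone. The median rank in the soft list was 12249 of 18238. These values share the contrast that chose the regions and are descriptions.

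**Figure D1:**
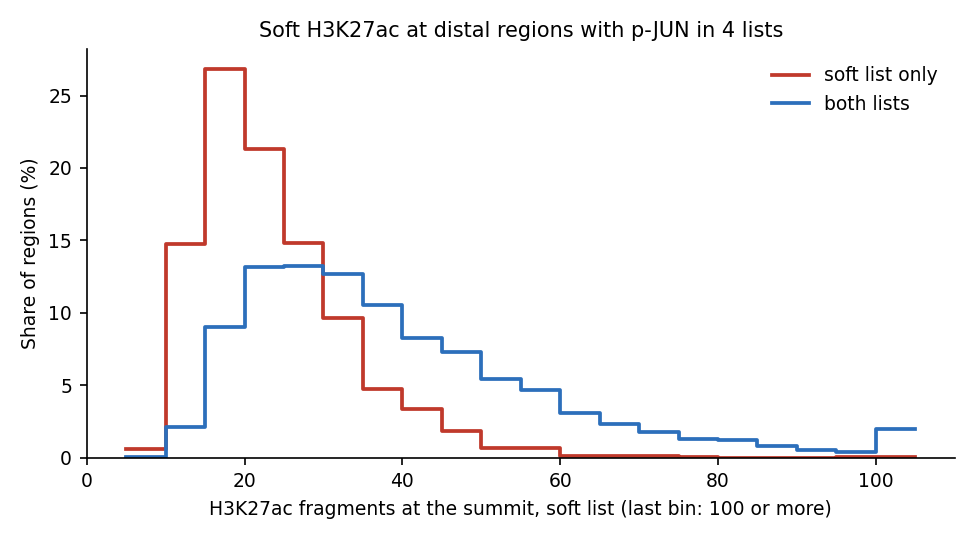
Share of regions (y axis, %) by H3K27ac fragments at the soft summit (x axis, bins of 5 fragments, the last bin 100 or more), for soft-only regions and regions of both lists, all distal with p-JUN in 4 lists. The soft-only regions sit at lower values, with a median of 21 against 34.

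The share of soft-only regions among soft-called distal p-JUN regions fell with this level. Soft-only regions made up 79.0% of regions with under 15 soft fragments, 61.4% of those with 15 to 19, 42.2% of those with 20 to 29, 24.8% of those with 30 to 39, 12.1% of those with 40 to 59 and 2.16% of those with 60 or more. Over the peaks of the stiff list, the 5th percentile was 14 fragments and the median 26. 356 soft-only regions (10.5%) fell under the former and 1127 (33.3%) reached the latter, against 1.37% and 73.0% of both-list regions. The lists give no H3K27ac level where no peak was called, so the stiff level of these regions is unknown.

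Of the 10 soft-only regions with the highest -log10 q, 7 lay in introns of coding genes. An intron of PLEKHA5 carried 52 soft H3K27ac fragments, and its p-JUN summits held 323 and 283 fragments on soft against 272 and 338 on stiff. PTPRM, a receptor phosphatase of cell contacts, had a region of 51 fragments in an intron with p-JUN of 122, 131, 126 and 133. A region in TRIO had 54 fragments and p-JUN of 273, 217, 224 and 248, and one in DNMBP, an activator of CDC42, had 55 fragments and p-JUN of 467, 423, 384 and 459. These raw soft and stiff p-JUN values overlapped at PLEKHA5, PTPRM, TRIO and DNMBP. After the centring of libraries used for the counts below, both soft values stood above both stiff ones at TRIO and DNMBP. At CDK15 the region held 46 fragments, and p-JUN was 263 and 223 on soft against 202 and 216 on stiff, lower in both stiff libraries. The FRMD6 region reached 100 fragments, the highest count, over a background of 17.9, so its deposited fold was 5.35.

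The nearest stiff H3K27ac peak was a median of 33901 bp from a soft-only region. It lay within 1 kb of 131 regions (3.87%) and within 100 kb of 2608 (77.0%), so most had stiff acetylation in the same neighbourhood. The regions were intronic in 46.0% of cases, between genes in 32.3%, in non-coding genes in 19.4% and exonic in 2.18%, close to the 45.5%, 32.3%, 19.8% and 2.48% of both-list regions. They lay a median of 40414 bp from a protein-coding start (33154 bp for both-list regions), with a GC content of 46.3% (48.6%) and an observed over expected CpG ratio of 0.184 (0.194). Among soft-called distal p-JUN regions, the soft-only share ran from 23.9% on chromosome 22 to 49.3% on chromosome 21.

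The AP-1 sequence was more frequent at the p-JUN summits of soft-only regions than in the comparison groups. TGACTCA on either strand, centred within 50 bp of the summit, was found in 38.5% ± 0.44 of soft-only regions (SD, n = 2 libraries) with soft summits and in 38.4% ± 0.35 with stiff summits. Windows 1 kb to each side held it in 1.73% of cases, so the summits had 22.2 times the share of their flanks. The share was 32.5% at both-list regions, 28.6% at stiff-only regions and 31.97% over all p-JUN peaks, means of 4 libraries. Soft-only regions were higher than both-list regions by 5.93 percentage points, beyond the spread between libraries, but the libraries share the regions and the difference was not tested. Over the whole acetylated region the order turned, with 48.8% of soft-only and 56.5% of the wider both-list regions holding the motif. In the soft-only group 1736 regions held none, 1348 held 1, 269 held 2 and 36 held 3 or more.

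The motif stood beside the summit and not under it. In 10 bp bins around the summit of soft library 1, motif centres were found in 8.35% of soft-only regions at 20 to 30 bp to the left and 6.99% at 20 to 30 bp to the right, and in 1.21% at the bin just left of the summit. The nearest motif was a median of 26 bp away, the same as at both-list regions. Fully flanked motifs, with A before and T after, were 9.93% of the 1410 motifs at soft-only regions and 7.18% at both-list regions.

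**Figure D2:**
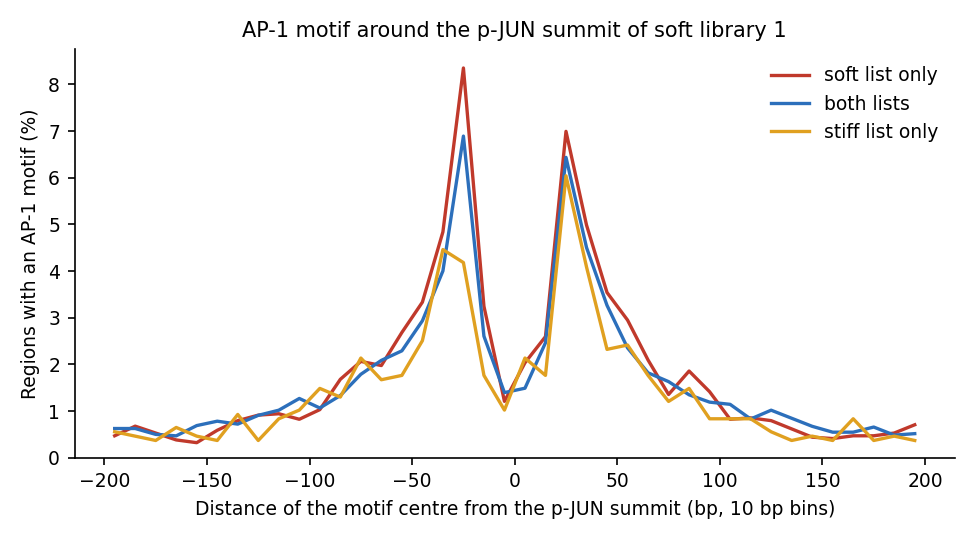
Share of regions with an AP-1 motif centre (y axis, %) by its distance from the p-JUN summit of soft library 1 (x axis, bp, 10 bp bins) for soft-only, both-list and stiff-only distal regions. Each curve has a peak on both sides of the summit and a dip at it, and the soft-only curve reaches 8.35% on the left.

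The share also rose with p-JUN level, and soft-only regions stood above both-list regions in each of 4 bins bounded by doublings of the fragment number. With a geometric mean under 64 fragments, 21.2% of 906 soft-only regions held the motif, against 14.4% of both-list regions. The shares were 37.4% and 23.2% in the bin that starts at 64 fragments, 45.2% and 36.1% in the next, and 58.5% and 45.5% in the highest, where the soft-only group had 520 regions. Stiff-only regions lay between the others in each bin below the highest, with 16.2%, 25.6% and 41.6%. They lay under both in the highest, with 38.6% of 114 regions. Below the highest bin, a share above both-list regions was thus not particular to the soft-only group. When regions were sorted by soft acetylation, the soft-only group again held the motif more often, from 36.2% against 33.1% under 15 fragments to 42.2% against 32.7% at 40 or more.

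**Figure D3:**
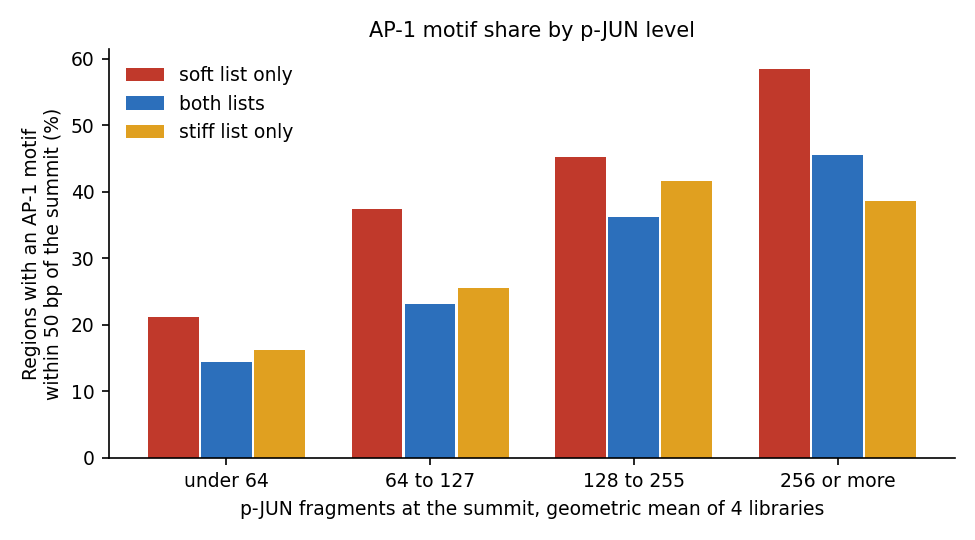
Share of regions with an AP-1 motif within 50 bp of the p-JUN summit (y axis, %, mean over 4 libraries) in 4 bins of p-JUN fragments (x axis, geometric mean of 4 libraries). Bars of soft-only regions run from 21.2% to 58.5% and stand above those of both-list regions in each bin.

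Other motifs were rarer. The TEAD sequence ACATTCC (both strands), bound by the partners of YAP and TAZ, stood within 50 bp of the summit in 3.18% of soft-only regions, 4.27% of both-list regions and 6.02% of stiff-only regions, against 1.55%, 1.29% and 1.50% in the flanks. Over the whole groups, its order was thus the reverse of that of AP-1. Within bins of p-JUN level the AP-1 order differed, with stiff-only above both-list regions below the highest bin. Of the 1293 soft-only regions with an AP-1 motif at the summit of soft library 1, 33 (2.55%) also held TEAD, and of the 2096 without, 76 (3.63%) did. The RUNX sequence TGTGGTT was found in 3.47%, 2.99% and 3.07% of soft-only, both-list and stiff-only regions. The ETS sequence CCGGAAG was found in 0.671%, 0.879% and 0.372%. A match describes letters in the window and not a bound factor.

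p-JUN at soft-only regions was of middling strength. The median summit held 117 fragments in soft library 1 (quartiles 67 and 204), 102 in stiff library 1 (57 and 180) and 120 in stiff library 2 (66 and 209), and soft library 2 had quartiles of 56 and 179. In the order soft 1, soft 2, stiff 1 and stiff 2, the medians were 174, 153, 156 and 184 at both-list regions, 98, 89, 96 and 114 at stiff-only regions, and 82, 70, 73 and 85 over all 40433 regions called in the 4 lists. Before scaling, the soft and stiff medians of soft-only regions overlapped. After each library was centred on its log2 median over the 40433 regions, the medians at soft-only regions were 0.51 and 0.53 for soft against 0.48 and 0.50 for stiff libraries. The 3389 regions met 3371 p-JUN regions, since 36 of them shared one with a neighbour.

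**Figure D4:**
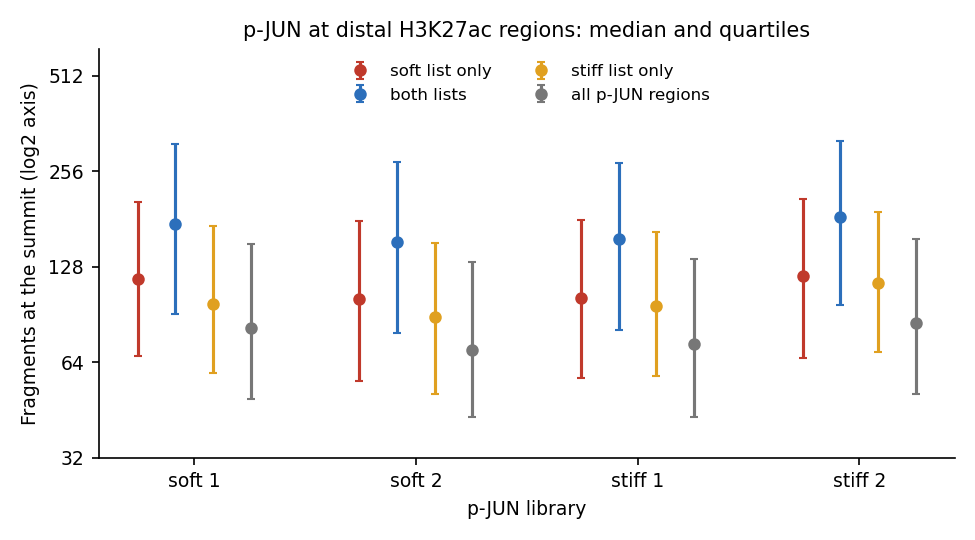
Median p-JUN fragments at the summit (points, log2 y axis) with quartiles (bars) in the 4 p-JUN libraries (x axis) for soft-only, both-list and stiff-only distal regions and all p-JUN regions. Soft-only medians lie below those of both-list regions in each library, with 117 against 174 in soft library 1.

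p-JUN at soft-only regions differed little between the matrices. The median difference, stiff minus soft, was -0.08 log2 at soft-only regions (quartiles -0.22 and 0.08), -0.05 at both-list regions, 0.07 at stiff-only regions and -0.05 over all regions. Replicate libraries differed from each other by a median absolute value of 0.11 on soft and 0.13 on stiff, and the group means by 0.17. The replicate values compare single libraries and the group value means of 2 libraries, so these measures are unlike. In the limma fit across all 40433 regions, 0 soft-only regions passed an adjusted p of 0.05, where 0.0% of all regions did, and the lowest adjusted p was 0.0628. The rule and the fit both kept only regions called in all 4 lists, so a p-JUN call lost on a matrix could not be seen. Without centring, 33 of 3389 soft-only regions passed, 15 lower and 18 higher on stiff, against 638 of all 40433 regions. At an unadjusted p under 0.05, 472 soft-only regions (13.9%) were lower on stiff and 240 (7.08%) higher, against 12.9% and 10.2% of all regions. Without centring these counts turned, to 155 lower and 169 higher, against 1655 and 3196 of all regions.

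Both soft libraries stood above both stiff ones at 1342 soft-only regions (39.6%, background 33.3%), and both stiff above both soft at 642 (18.9%, background 22.5%). At both-list regions the shares were 36.4% and 22.9%, and at stiff-only regions 22.03% and 38.8%. Without centring, the counts were 634 (18.7%) and 540 (15.9%), against backgrounds of 16.2% and 20.4%, so that soft-higher regions made up 54.0% of those that did not overlap in place of 67.6%. The median was -0.02 without centring, while more regions had an unadjusted p under 0.05 in the stiff direction, so both the size and the direction of the lean depended on the scaling and on the measure.

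The lean was larger where the summit held AP-1. In the 1293 soft-only regions with the motif, the median difference was -0.11, and soft was higher in 47.6% and stiff in 14.1%, while in the 2096 without it the median was -0.05 with 34.7% and 21.9%. Regions with the motif also had more p-JUN, with medians of 156 and 135 on soft against 135 and 151 on stiff against 96.5, 84, 86 and 100. Both-list regions moved alike, from -0.02 without to -0.09 with the motif, so this was not particular to the soft-only group. The 109 soft-only regions with TEAD had a median of -0.00069, with soft higher in 32.1% and stiff in 33.9%. Among the 67 stiff-only regions with TEAD the median was 0.20, with soft higher in 7.46% and stiff in 55.2%. No test compared these groups.

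Single regions with the smallest p carried large differences without passing the adjusted threshold. In an intron of UBE2Z, a ubiquitin-conjugating enzyme, p-JUN was 92 and 76 on soft against 39 and 40 on stiff, a difference of -1.14 (SE 0.13, adjusted p = 0.0628, limma). Near FAM240C it was 466 and 497 on soft against 174 and 226 on stiff, a difference of -1.34 (SE 0.15) with the same adjusted p. An intron of ITGAM, a leukocyte integrin, had 131 and 97 on soft against 52 and 58 on stiff. The soft and stiff values did not overlap at any of these. In the opposite direction, a region in a non-coding gene 18629 bp from the start of IL1R2, the decoy receptor for interleukin 1, had 48 and 42 on soft against 81 and 95 on stiff, a difference of 0.91 (SE 0.12, adjusted p = 0.0628, limma). In all, 4 of 3389 soft-only regions differed by more than 2-fold, against 4 of 6370 both-list regions and 72 of all 40433 p-JUN regions.

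Promoter and repressive marks were scarce, and the share of regions with a promoter mark differed by less than the spread between libraries. H3K4me3 peaks, the mark of promoters, overlapped 9.50% and 10.5% of soft-only regions on soft against 9.68% and 10.5% on stiff, a difference of 0.0885 percentage points that is below the spread between libraries (SD 0.730 and 0.605, n = 2 each). At both-list regions the shares were 21.3% to 26.7%, and at stiff-only regions 7.34% to 9.94%. 235 soft-only regions carried H3K4me3 in all 4 libraries and 2900 (85.6%) in none, 15 in both soft and no stiff libraries and 22 the reverse. H3K27me3, the Polycomb mark, overlapped 8 and 4 soft-only regions on soft and 5 and 5 on stiff, against 30 to 49 both-list and 13 to 15 stiff-only regions. As shares of each group these were 0.118% to 0.236%, 0.471% to 0.769% and 1.21% to 1.39%.

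In the limma fit over 16098 H3K4me3 regions, 247 lay under 249 soft-only regions. Their median summits were 53 and 64 fragments on soft against 62 and 84 on stiff, far below the 134 to 248 of all H3K4me3 regions. 0 passed an adjusted p of 0.05 (background 0.0621%), and 89 (36.0%) had an unadjusted p under 0.05 against 19.3% of all regions. That share was 31.7% under both-list and 23.7% under stiff-only regions, so most of the excess was not particular to the soft-only group. These counts take both directions together. The median centred difference was -0.15, against -0.13 at both-list regions and -0.01 over all regions.

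The nearest start belonged to 2317 of 19794 protein-coding genes (11.7%), of which 1641 had 1 soft-only region and 35 had 5 or more. 2536 regions (74.8%) lay within 100 kb of that start. H3K4me3 marked the nearest gene in all 4 libraries for 77.9% of soft-only regions, close to the 76.6% of both-list regions, in none for 18.6%, in both soft and no stiff libraries for 10 regions and the reverse for 6. The promoter of that gene was acetylated in both lists for 801 regions, in the soft list alone for 490 (14.5%), in the stiff list alone for 93 and in neither for 2005. Among both-list regions 13.7% had a promoter acetylated on soft alone. The nearest gene is a label of position, and its expression was not measured here.

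RUNX1, a transcription factor of blood and mesenchymal cells, had 11 soft-only regions, all intronic and spread over 391.8 kb inside the gene, beside 3 both-list and 2 stiff-only regions. Their soft H3K27ac ran from 12 to 33 fragments, and 6 held AP-1 at the summit. The region farthest from the start but one had p-JUN of 73 and 62 on soft against 40 and 44 on stiff, and the farthest one 92 and 79 on soft against 108 and 116 on stiff, so p-JUN differed in both directions within the gene. TMEM132C, a membrane protein gene, was the nearest to 11 regions 87.96 to 865.5 kb upstream of it and had no H3K4me3 at its start in any library. JAG1, a Notch ligand, had 9 regions with 14 to 30 fragments and p-JUN differences from -0.25 to 0.38. LHFPL2 had 8, at 5 of which both soft libraries were above both stiff on the centred scale. This order held at 39.6% of all soft-only regions and at 33.3% of all p-JUN regions. ANO6, a calcium-activated scramblase, had 7 soft-only regions, all intronic.

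The 36 genes of the MAP kinase cascade and its feedback had 25 soft-only regions at 10 genes, beside 33 both-list and 1 stiff-only region, so 43.1% of their soft-called regions were soft-only against 34.7% over all genes. Of these 25, 14 came from DUSP4 and DUSP10 with 7 each. DUSP4 and DUSP10 encode phosphatases that switch off MAP kinases, DUSP10 mainly JNK and p38. At DUSP10, the region 301.8 kb away had p-JUN of 507 and 469 on soft against 348 and 407 on stiff, and the one 74.91 kb away had 50 and 34 on soft against 56 and 59 on stiff. DUSP4 had 1 region with values of 86 and 104 on soft against 119 and 178 on stiff, and 6 with differences between -0.46 and -0.01. A region 23275 bp from DUSP6, an ERK phosphatase, carried 36 H3K27ac fragments and p-JUN of 306 and 232 on soft against 186 and 219 on stiff. SPRY1, SPRY2 and SPRY4, Sprouty inhibitors of receptor signalling, had 2 each. Over the 25 regions, both soft libraries were higher in 14 (56.0%) and both stiff in 5, with a median of -0.17. Over all soft-only regions these shares were 39.6% and 18.9%, and over all p-JUN regions 33.3% and 22.5%, which also stand behind the counts of the lists that follow.

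**Figure D5:**
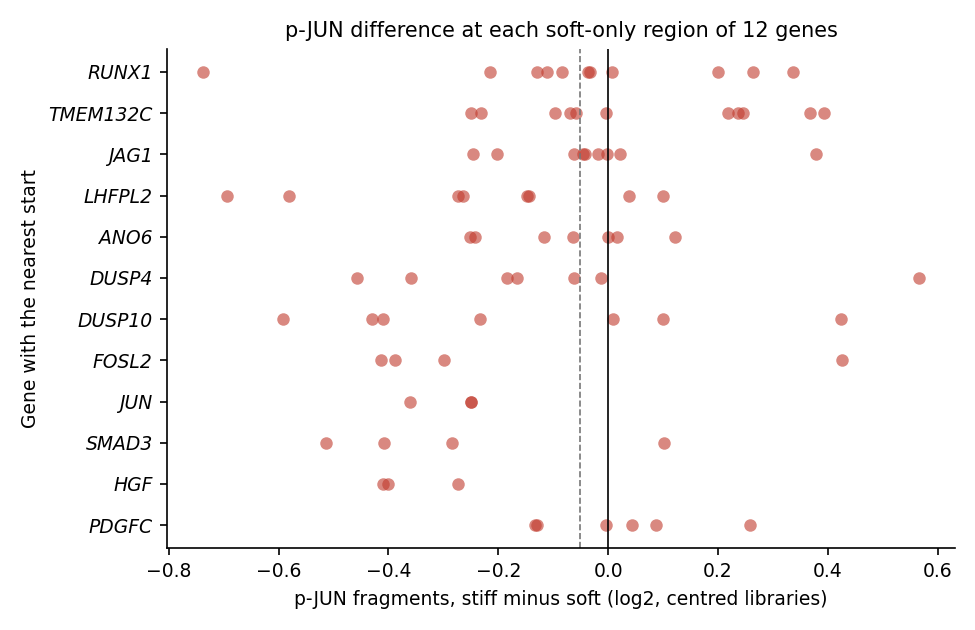
p-JUN difference, stiff minus soft (x axis, log2 of centred fragments), at each soft-only region (points) of 12 genes with the nearest start (y axis). The solid line is 0 and the dashed line the median of all p-JUN regions, -0.05, and the points of RUNX1 and DUSP10 lie on both sides while the 3 of HGF and the 3 of JUN lie below 0.

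The AP-1 genes themselves had 9 soft-only regions at 4 of 19 genes. FOSL2 had 4, JUN 3, and MAF and MAFK 1 each. Soft was higher in 7 of the 9 and stiff in 1, against 33.3% and 22.5% of all p-JUN regions, but the 7 include a pair of JUN regions that shared 1 p-JUN region and so count the same values again. The 3 regions of JUN lay in non-coding genes 31.26, 32.44 and 119.5 kb from its start. All 3 carried H3K4me3, the mark of promoters, in all 4 libraries, as did 6.93% of all soft-only regions. Their GC contents were 66.8%, 62.7% and 71.8%, against a median of 46.3% over all soft-only regions. The nearer 2 shared a p-JUN region with 93 and 75 fragments on soft against 62 and 86 on stiff, and the third had 142 and 147 on soft against 97 and 141 on stiff. The 4 of FOSL2 included the intronic one shown above, with 789 and 741 on soft against 586 and 713 on stiff, and 1 with the opposite order, 95 and 102 on soft against 121 and 156 on stiff. The raw values of JUN and FOSL2 do not all separate the groups, and the counts of 7 and 1 rest on the centred scale.

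Among soft-called regions of matrix genes, the soft-only share was close to the 34.7% over all genes. The collagen list had 18 regions at 11 of 28 genes (35.3% of soft-called), the glycoprotein list 21 at 13 of 40 (31.3%) and the list of proteases, inhibitors and crosslinkers 21 at 15 of 45 (31.8%). COL6A3, of the beaded filament collagen, had 3 regions, and the one nearest to the start had 38 H3K27ac fragments and p-JUN of 112, 99, 82 and 102. COL4A1, of basement membrane, had 1 with 27 fragments and p-JUN of 135 and 131 on soft against 107 and 113 on stiff. An intron of CAMK1G, 10880 bp from the start of LAMB3, a laminin chain, carried 30 fragments and p-JUN of 215 and 217 on soft against 160 and 152 on stiff. ADAMTS12 and ADAMTS14, secreted proteases, had regions of 71 and 52 fragments, the former over a background of 14.1, with p-JUN of 204, 171, 176 and 210 and of 474, 406, 401 and 490. LOXL2, a collagen crosslinking enzyme, had 3 regions, 0 of them with AP-1 at the summit. Of the listed collagen, glycoprotein and protease genes, 39.3%, 32.5% and 33.3% had a soft-only region, against 11.7% of all protein-coding genes. The same lists also held 33, 46 and 45 both-list regions, so this excess is not shown to be particular to the soft-only group. The share of genes with a both-list region was not counted. Soft p-JUN was higher in 7 collagen (38.9%), 7 glycoprotein (33.3%) and 11 protease regions (52.4%) and stiff in 4, 4 and 3, where 33.3% and 22.5% of all p-JUN regions were.

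The contractile list had 10 regions at 7 of 35 genes, 23.3% of soft-called, with soft higher in 3 and stiff in 4 of the 10 and a median of 0.0046. CNN3, calponin 3, had 3, which ran in both directions. The one in an intron of the gene ALG14 had p-JUN of 94 and 76 on soft against 99 and 124 on stiff. The one between genes had 62 and 61 against 69 and 85, and the one in a non-coding gene was lower on stiff, by a difference of -0.46. The integrin and focal adhesion list had 23 regions at 13 of 41 genes (28.7%), led by TNS3 and LPP with 5 each, and soft was higher in 8 (34.8%, background 33.3%) and stiff in 1 (4.35%, background 22.5%). An intron of ITGA11, a collagen-binding integrin, held 33 fragments with p-JUN of 67 and 55 on soft against 40 and 46 on stiff, a difference of -0.56. The YAP, TAZ and TEAD list had 17 regions at 10 of 31 genes (28.8%), with PTPN14, an inhibitor of YAP, having 4, YAP1 1 and TEAD1 2, a median of 0.05, and soft higher in 5 and stiff in 3.

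The TGF-beta and SMAD list had 25 regions at 11 of 33 genes (34.2%), led by TGFB2 with 5 and SMAD3 and SMURF2 with 4 each. In an intron of SMAD3, 4286 bp from a start, p-JUN was 227 and 193 on soft against 139 and 167 on stiff, a difference of -0.51 (SE 0.12, adjusted p = 0.0785, limma). Of the 25, 13 held AP-1 at the summit, against 1293 of all 3389. Soft was higher in 12 (48.0%, background 33.3%) and stiff in 5 (background 22.5%). Growth factor genes had 22 regions (31.9%), 6 of them nearest to PDGFC, a platelet-derived growth factor, with p-JUN differences from -0.13 to 0.26. A region 8687 bp from IGFBP7 carried 45 fragments and H3K4me3 in all 4 libraries, with p-JUN of 45 and 48 on soft against 62 and 74 on stiff. The inflammatory list had 11 regions at 8 of 38 genes (36.7%), among them IL1A with 32 fragments and CXCL8 with 2 regions, with soft higher in 5 and stiff in 2.

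Stellate identity genes had 18 regions at 11 of 36 genes (35.3%), with a median of -0.14. Soft was higher in 10 (55.6%, background 33.3%) and stiff in 1 (5.56%, background 22.5%). KLF6, a zinc finger factor of quiescent and activated stellate cells, had 5, and HGF, hepatocyte growth factor, had 3 within 24.24 kb of each other, 141.8 to 165.5 kb from its start. At all 3 of HGF both soft libraries were above both stiff on the centred scale, with differences from -0.41 to -0.27. VDR, the vitamin D receptor, had 1 intronic region of 26 fragments with AP-1 and p-JUN of 270, 249, 272 and 263, where the groups overlapped. NES, nestin, had a region with p-JUN of 789 and 728 on soft against 587 and 634 on stiff and H3K4me3 in all 4 libraries. The WNT list had 9 regions at 6 of 41 genes (24.3%), with TCF7L2, a WNT effector, having 3. Its strongest had 39 fragments and p-JUN of 603 and 479 on soft against 438 and 550 on stiff.

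Over the 13 lists together, 226 soft-only regions (6.67%) had a listed gene as the nearest, against 7.47% of both-list and 6.97% of stiff-only regions. Their median p-JUN difference was -0.09, against -0.08 over all soft-only regions, with soft higher in 43.4% and stiff in 18.1%. The lists as a whole thus stood at the background of the soft-only group.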

How the data were processed

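CUT&Tag peak lists of LX-2 cells on a soft or stiff matrix for 2 days were analysed. The authors trimmed reads with Trim Galore, aligned them to hg19 with Bowtie2 and marked duplicates with Picard, without versions in the submitters' processing notes. The peak names point to MACS2, and its options and any control library are not given in the sources used here. The labels gave another number of cells per assay than the study's methods. In each deposited list a peak has a fold (the ratio of its summit to the local background of that library), a -log10 p, a -log10 q and a score made from -log10 q. The narrow lists held no -log10 q under 5.0. H3K27me3 lists held broad peaks, used for overlap alone. Samples were grouped by their treatment label.

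From the fold and -log10 p of each narrow peak, the whole number of fragments at the summit and its background were recovered, assuming fold as (fragments + 1) / (background + 1) and p as a Poisson tail. At least 99.88% of the peaks of each list gave a whole number at a relative error under 1e-04. Fragments bear counting error, and read totals were not analysed here. Regions called in all 4 lists were compared on log2 fragments, centred per library, with limma 3.58.1 (R 4.3.3) and Benjamini-Hochberg adjustment, stiff minus soft, with no block. Positions and starts came from GENCODE 44 mapped to GRCh37, the assembly of hg19, and 461 of 461 listed genes were found in it. Overlap meant 1 bp on 24 chromosomes. Exon, intron or non-coding gene was read at a region's midpoint.

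The regions named were, by a fixed rule, the 10 with the highest soft -log10 q, the 10 with the highest p-JUN, the 5 genes nearest to most of them, up to 4 per gene list within 100 kb of the start, and those with the smallest p. FMN1 and other genes with many regions were not described. Further regions and genes, among them those of DUSP10, DUSP4, FOSL2, JUN, HGF and PDGFC, were named after their values were seen. The regions and the gene lists were chosen with earlier results of these data known. Some regions named by the rule are not reported here. Scripts were tested on simulated data.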

Additional observations from a re-analysis of the deposited data

How the results depend on the processing

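The number of soft-only regions stayed within 1.5 times of 3389 in all settings but 1: with both H3K27ac lists cut to equal length by -log10 q it was 2002. It was 3417 to 3495 when 1 p-JUN library was left out, and 2702 when distance was taken from all annotated transcript starts. Some soft-only regions thus lay within 3 kb of a start that is not of a protein-coding transcript. The AP-1 share was 17.9% within 25 bp of the summit, 51.7% within 100 bp, 48.8% anywhere in the region, 39.0% at a -log10 q of at least 10, 39.1% with equal lists and 38.0% to 38.3% with 1 library left out. Its excess over both-list regions was 2.64 points within 25 bp, turned to -7.68 over the whole region, whose both-list regions are wider, and was 5.55 to 6.06 with 1 library left out. The median p-JUN difference was -0.0223 without centring and -0.0203 on the deposited fold, and -0.09 to -0.07 with 1 library left out. The ratio of median soft H3K27ac fragments, soft-only over both-list, was 0.618, and 0.625 minus background, 0.939 on the deposited fold and 0.650 at a -log10 q of at least 10. The share near a listed gene was 4.57% for any start within 50 kb.

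In limma, 0 soft-only regions were called with quantile normalization, the deposited fold, a mean of at least 30 fragments, or any 1 library left out, where the lone library of its group is assumed to vary like the other group. Without centring, added after the data were seen, 33 of 3389 were called, 15 lower and 18 higher on stiff, against 638 of all 40433 regions. The unadjusted counts then turned from 472 lower and 240 higher to 155 and 169. The H3K4me3 difference ran from -0.43 to 0.60 points and the H3K27me3 difference from -0.089 to 0.030 points with 1 library left out, with both signs. It was 0.0295 without H3K27me3 soft replicate 1, -0.428 without H3K4me3 soft replicate 1 and -0.339 without H3K4me3 stiff replicate 2.

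Deviations from the group means hardly correlated between libraries of the same replicate number, at 0.0508 over p-JUN regions and -0.0612 over H3K4me3 regions. With 2 libraries per group this cannot show whether such libraries were handled together. With a replicate block in limma, 111 of 3389 soft-only regions were called, 73 lower and 38 higher on stiff. Over all regions 1492 of 40433 were called, so the soft-only share was not above the background. The direction of these 1492 was not counted. Of regions with an unadjusted p under 0.05 in that fit, 66.8% of soft-only and 56.2% of all regions were lower on stiff. The replicate block left the median p-JUN difference at -0.08 and the H3K4me3 and H3K27me3 differences at 0.0885 and -0.0295 points. With 2 libraries per matrix and 1 H3K27ac list each, small differences in p-JUN and any in H3K27ac lie below what these data resolve.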

Other observations

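Other short sequences were counted at the same p-JUN summits. The E-box CAGCTG stood within 50 bp in 8.28% of soft-only, 9.09% of both-list and 7.23% of stiff-only regions, against 4.23%, 4.88% and 4.98% in windows 1 kb away. The GATA sequence AGATAA was found in 6.23%, 4.70% and 5.41%, each below its flanks (7.32%, 6.40% and 7.20%). The SP and KLF sequence GGGCGG, common at CpG-rich promoters, was found in 3.98% of soft-only regions, against 7.85% of all p-JUN peaks. The cyclic AMP response sequence TGACGTCA was found in 0.531% of soft-only and 0.542% of both-list regions, against 0.163% of stiff-only regions, which at 1076 regions is 1 or 2 regions per library. None of these shares was tested.

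The p-JUN summit of soft library 1 lay outside the acetylated region at 482 soft-only regions (14.2%), at 3.20% of the wider both-list regions and at 22.4% of stiff-only regions, although the peaks overlapped. The median distance between the p-JUN and the soft H3K27ac summit was 81.0 bp at soft-only and 77.0 bp at both-list regions.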
